A study of Mus musculus with 12 samples.

Results

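The 36 genes described here build and serve the primary cilium. They were taken by name from 54532 genes in the table of values. The choice used no measurement of them, though it was made with earlier results of these data known. Of the 36, 11 encode subunits of intraflagellar transport complex B (IFT-B), 6 of complex A (IFT-A), 7 of the BBSome and 3 of the IFT motors. Another 5 act in traffic of the ciliary membrane and 4 in Hedgehog signalling at the cilium. All 36 were found in the table, and 34 reached at least 1 FPKM (a level per length of gene and per size of library) in at least 3 of 12 libraries and were tested. The other two, Bbs1 and Dync2h1, are given as levels. Polyadenylated RNA of mouse melanoma cells with the BRAFV600E mutation was sequenced in 4 groups of 3 libraries, and every group was kept in 10% FBS with puromycin at 1 ug/mL. NTC is a non-targeted control, and Gli2CA carries an active mutant of Gli2. Cas9-NTC is the non-targeted control of a CRISPR experiment, and Cas9-Gli2KO is the group labelled as its Gli2 knockout. Both Cas9 groups were also kept in blasticidin at 10 ug/mL. No label says whether the libraries of a group are separate cultures or separate clones, so the p-values measure a spread that may be technical.

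The primary cilium is a single antenna-like projection built on a microtubule core. Trains of IFT-B and IFT-A carry cargo along it: kinesin-II moves them from base to tip, and cytoplasmic dynein-2 moves them back. IFT-A, with its adaptor Tulp3, brings membrane receptors in, and the BBSome, with Ift27, takes receptors out. Hedgehog signalling in vertebrates depends on this traffic: Smo gathers in the cilium after the pathway is switched on, Gpr161 leaves it, and the Gli proteins pass through its tip to be activated or cut to repressors. Cells take the cilium down before they divide, and melanoma cells are known for having few cilia. Ciliary genes are transcribed in part through a promoter element named the X-box, which RFX factors bind.

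Gli2 itself was listed at 0 FPKM in all NTC libraries and at 0.00911, 0 and 0.0387 in Gli2CA (at most 5 reads), so a mutant Gli2 transcript is not visible at the mouse gene. Gli2 RNA was higher, not lower, in the group labelled Gli2 knockout. Its 3 libraries held 0.82, 0.894 and 2.14 FPKM, and the 3 of Cas9-NTC held 0.249, 0.35 and 0.235. The groups did not overlap (exact permutation test, 2-sided, p = 0.1, the smallest that 3 against 3 libraries can give). An RNA level does not show whether the protein was lost, so the label could not be tested here. The directions given for the libraries labelled Gli2 knockout therefore follow their label only. Those 3 libraries also stood apart from one another: over 11860 tested genes, their root mean square distance from their group's mean was 0.281, 0.166 and 0.386 on the log2(FPKM + 1) scale for libraries 1, 2 and 3, against 0.106 to 0.188 in the other 9. Of 10 markers of the melanocyte lineage, 8 stayed below 1 FPKM in every library. Sox10 was at 155 to 197 FPKM in NTC and Gli2CA and at no more than 0.058 in both Cas9 groups, so the control lines differed in a defining marker. Of the 2 tested markers of this lineage, 1 was called lower and 1 higher in Cas9-NTC than in NTC. The higher one differed by 0.85 on the log2 scale. The summed level of 10 leukocyte markers was at most 1.11 FPKM and that of 8 keratinocyte markers at most 3.57. Markers of other cells moved with the groups. The summed level of 9 fibroblast markers was 79.1 to 88.8 FPKM in NTC, 89.9 to 103 in Gli2CA, 240 to 252 in Cas9-NTC and 116 to 268 in the labelled knockout; Col3a1 made up most of it, and Lum was listed at 0 in every library. All 5 tested fibroblast markers were called between the control lines, 4 higher and 1 lower, where 48.9% of all genes tested were called. The sum of 8 endothelial markers was 4.49 to 5.4 FPKM in NTC, 20.4 to 23.1 in Gli2CA, 10.2 to 11.4 in Cas9-NTC and 8.34 to 24.6 in the labelled knockout, mostly from Flt1 and Cdh5, while Pecam1 stayed at or below 0.0615 and Cldn5 was listed at 0 throughout. The part of other cells in the members' changes was not tested.

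The promoters of 33 members were found in RefSeq (GRCm38.p6), each from 250 bases before to 50 after the gene's start. They are shown because the X-box is the element that ciliary genes are known to share, and the choice of members did not use it. A spelling of the X-box, the arm GTNNCC and the arm GGNAAC with 2 bases of any kind between them, was searched on both strands and was present in 5 of the 33 (15.2%), against 1.49% of 27025 promoters. It was chosen after 14 spellings of several motifs had been searched and their counts seen, so its share is a description. The promoters of Ift22 (with 2 matches), Ift57, Bbs1, Bbs4 and Bbs7 held it. In the farther match of Ift22, in Ift57 and in Bbs1 it is read on the other strand, where the arms are GTTNCC and GGNNAC. A stricter spelling, GTTGCC and GGNAAC with 2 bases between them, was present in 1 of the 33, Bbs7 (3.03%, against 0.355% of all). Each window has 30 bases, is written 5′ to 3′ on the gene's strand and has the match in capitals:
Ift22, nearer match, chr5:136908109-136908138, plus strand: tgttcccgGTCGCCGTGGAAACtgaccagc
Ift22, farther match, chr5:136908079-136908108, plus strand: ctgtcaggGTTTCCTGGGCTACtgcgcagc
Ift57, chr16:49699199-49699228, plus strand: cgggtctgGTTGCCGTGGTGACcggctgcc
Bbs1, chr19:4906605-4906634, minus strand: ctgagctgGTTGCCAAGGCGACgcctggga
Bbs4, chr9:59353464-59353493, minus strand: ctcagctgGTCGCCCGGGAAACggtcggct
Bbs7, chr3:36613489-36613518, minus strand: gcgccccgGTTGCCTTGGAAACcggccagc

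The first arm of the X-box alone, GTTGCC on either strand, was present in 13 of the 33 promoters (39.4%), against 14.1% of all; in Ift57, Bbs1 and Bbs7 it lies within the longer match. Among its 13 holders, of which Bbs1 and Dync2h1 were under the filter, are 5 members that were called between the control lines, as described further on: Ift27, Ift88, Bbs7, Arl13b and Evc. In that comparison 14 of the 34 tested members (41.2%) and 48.9% of all genes were called, and a link between the motif and the calls was not tested. A GLI site spelled GACCACCCA was present in 0 of the 33 and in 0.289% of all promoters. The windows of the 3 of these with the largest difference have the short motif in capitals, and where it is read on the other strand the letters are GGCAAC:
Ift27, chr15:78174073-78174102, minus strand: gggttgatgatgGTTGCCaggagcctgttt
Arl13b, chr16:62847204-62847233, minus strand: acagacgctccaGTTGCCtagttaccagag
Evc, chr5:37337047-37337076, minus strand: ctcaggactcagGGCAACctgaacgctcag

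The ciliary genes were transcribed in all 4 groups, at levels that ranged widely between genes. By mean FPKM over the 12 libraries, which is scaled to gene length, the highest member was Arl3 at 62.1, a small GTPase that releases lipid-modified cargo inside the cilium. Ift20, the IFT-B subunit that also sits at the Golgi, followed at 31.6, and Rab34, a GTPase of the vesicle from which the ciliary membrane grows, at 29.7. The lowest were Dync2h1, the heavy chain of the dynein-2 motor, at 0.535, and Bbs1, a BBSome subunit, at 0.663. The summed FPKM of the 36 members was 265 to 280 in NTC, 287 to 297 in Gli2CA, 270 to 278 in Cas9-NTC and 275 to 368 in the libraries labelled Gli2 knockout. Every member had reads in every library, the fewest being 56 for Bbs1, and 4 members fell under 100 reads in some library. In bulk RNA, fewer ciliated cells and less RNA per cell cannot be told apart. Exons of Ift57, Ift88, Bbs4, Inpp5e and Kif7 overlap those of other genes in GENCODE M21 (Gm15518, Ift88os, Adpgk, Pmpca, and 9330171B17Rik with Ticrr), and since the use of strand in counting is not given in the sources used here, their values are uncertain.

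**Figure D1:**
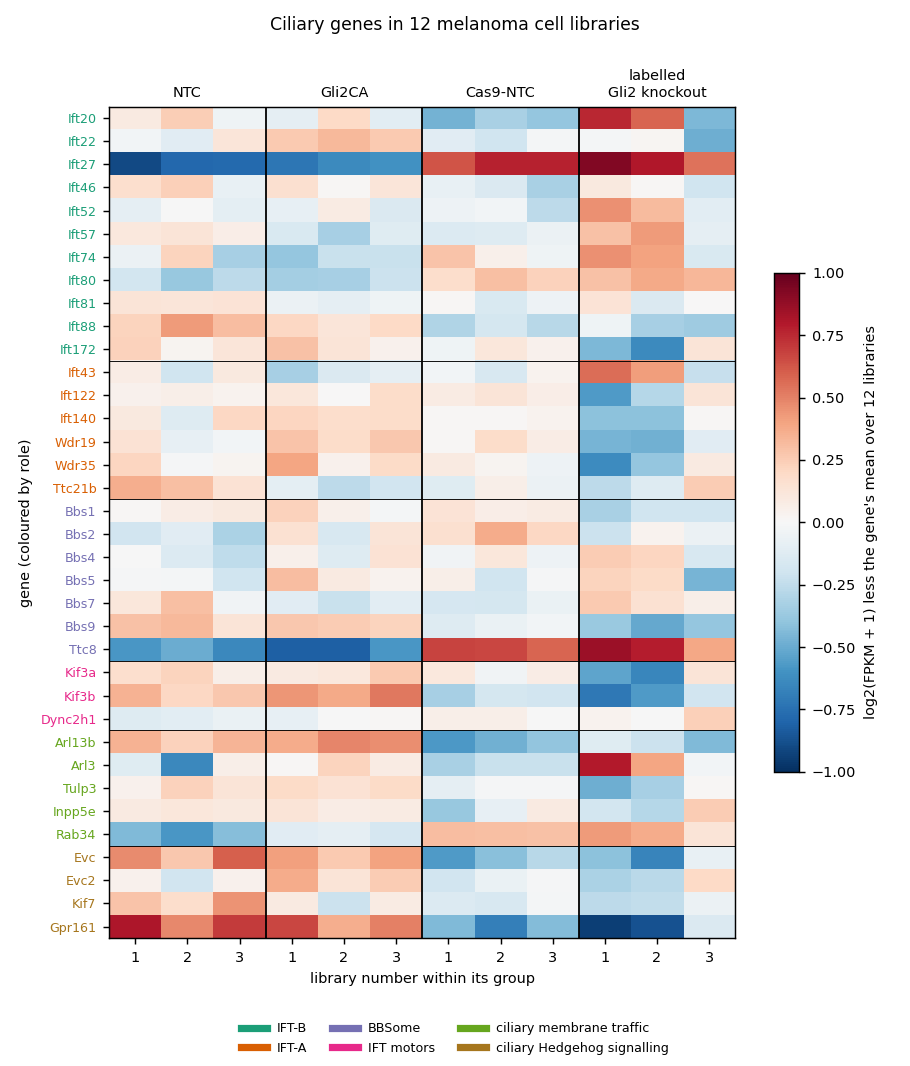
Level of each of the 36 members (rows, coloured by role) in each of the 12 libraries (columns, 3 per group), as log2(FPKM + 1) less the gene's mean over the 12, with colours ending at -1 and 1. Ift27, Ttc8, Gpr161, Evc and Arl13b separate the Cas9 groups from the other two, and library 3 of the group labelled Gli2 knockout differs from libraries 1 and 2.

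Active Gli2 was set beside its control to ask which genes follow the factor. Only 2 of the 34 tested members passed the test in Gli2CA against NTC (limma, Benjamini-Hochberg adjusted p under 0.05 over all 11860 genes), 1 higher and 1 lower. That is 5.88% of them, against 14.2% of all genes tested, of which 8.45% were higher and 5.76% lower. With the libraries rescaled to a common total the higher share of all calls went from 59.5% to 33.9%, and the members called were Ift57 and Bbs7, both lower. The members' changes ran from -0.46 to 0.36 with a median of 0.01 on the log2(FPKM + 1) scale, the median of all genes being 0.00. None of the 34 changed by as much as 0.5, and the standard errors were 0.08 to 0.25 with a median of 0.12. At an unadjusted p under 0.05, 8 of the 34 members and 3067 of the 11860 genes passed. The libraries of Gli2CA and NTC did not overlap for 14 members, 8 higher and 6 lower, while 43.7% of all genes did not overlap.

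Rab34 was at 21, 19 and 21.2 FPKM in NTC and 26.6, 27.1 and 25.6 in Gli2CA. All Gli2CA libraries lay above all NTC libraries, and the means were 20.4 ± 1.18 and 26.4 ± 0.769 FPKM (SD, n = 3 each). It was higher by 0.36 ± 0.09 (SE) on the log2 scale, or 1.29-fold in mean FPKM (limma adjusted p = 0.0203). The call rests on every library of the comparison except NTC library 3: without any other 1 of them the adjusted p was 0.0508 to 0.0825, and with the libraries rescaled to a common total it was 0.124.

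Ttc21b encodes IFT139, an outer subunit of IFT-A that in mice is needed to hold Hedgehog signalling down. It was at 4.44, 4.2 and 3.67 FPKM in NTC and at 2.94, 2.52 and 2.69 in Gli2CA, again without overlap. The change was -0.46 ± 0.13 (SE) on the log2 scale, or 1.51-fold lower in mean FPKM (limma adjusted p = 0.0347). Its adjusted p was above 0.05 under 11 alternatives and reached 0.125, among them the omission of any 1 Gli2CA library and of NTC library 1 or 2.

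The other roles gave few or no calls. Among the 11 IFT-B subunits 0 passed the adjusted threshold and 3 had an unadjusted p under 0.05 (limma). Ift22, a Rab-like GTPase, was the highest at 0.29 ± 0.13, with an adjusted p of 0.183. Ift57, a subunit of the outer part of IFT-B, was the lowest at -0.30 ± 0.12, with an adjusted p of 0.131. Among the 6 tested BBSome subunits 0 passed, with 2 at an unadjusted p under 0.05. Of the motors, Kif3a and Kif3b, which form kinesin-II, changed by 0.01 and 0.17 with 0 passing in limma at the adjusted or the unadjusted threshold. The 4 Hedgehog members also gave 0 calls, with 1 at an unadjusted p under 0.05: Evc and Evc2, partners at the ciliary base that pass on the signal of Smo, were at -0.09 and 0.29, Gpr161, a receptor that restrains the pathway, at -0.15, and Kif7, a kinesin of the ciliary tip, at -0.31 (adjusted p = 0.0914).

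The members under the filter were given exact tests. Bbs1 was at 0.667, 0.738 and 0.77 FPKM in NTC and 0.942, 0.713 and 0.628 in Gli2CA (exact permutation test, p = 0.9). Dync2h1 was at 0.399, 0.421 and 0.464 FPKM in NTC and 0.444, 0.527 and 0.546 in Gli2CA (exact permutation test, p = 0.2). Both pairs of groups overlapped.

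**Figure D2:**
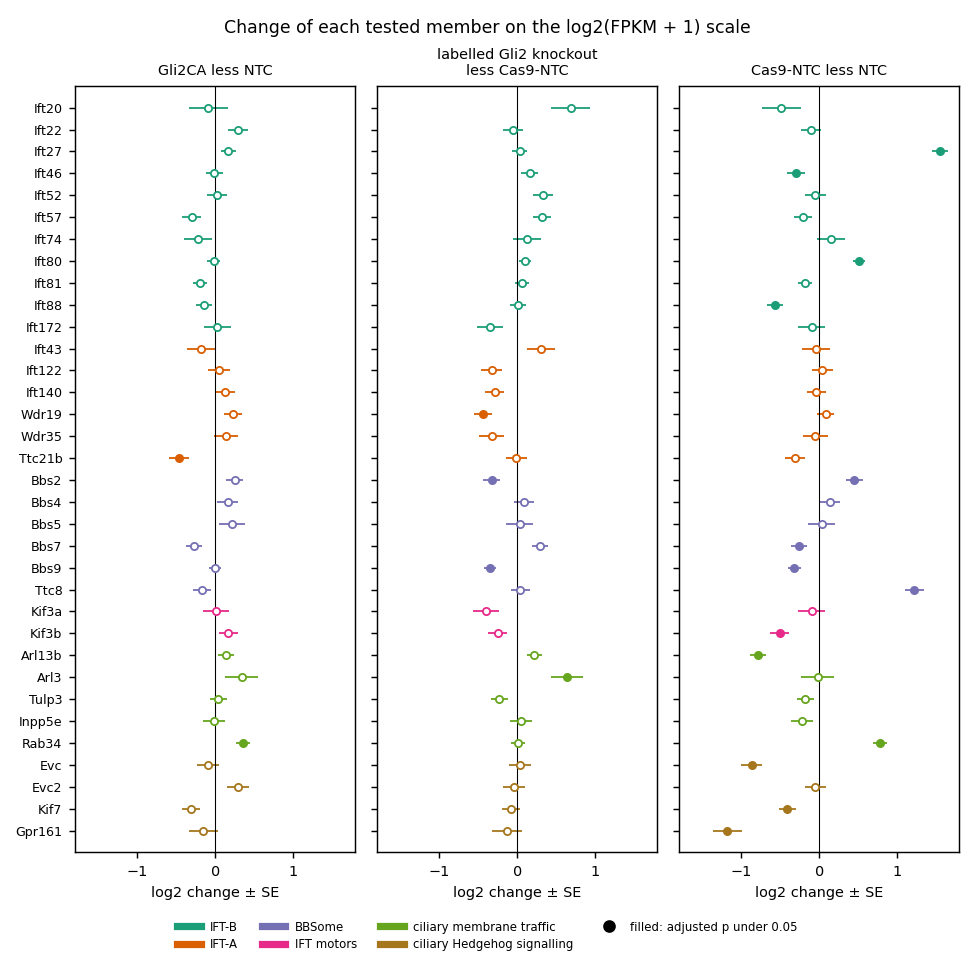
Change of each of the 34 tested members on the log2(FPKM + 1) scale (x axis, bars of 1 SE) in 3 comparisons (panels), coloured by role, with filled points for an adjusted p under 0.05. In the panel of Gli2CA less NTC 2 points are filled, in that of the labelled Gli2 knockout less Cas9-NTC 4, and in that of Cas9-NTC less NTC 14.

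In the libraries labelled Gli2 knockout, in which Gli2 RNA was higher than in Cas9-NTC, 4 of the 34 members passed, 1 higher and 3 lower. That is 11.8% of them, against 26.8% of all genes tested, of which 11.2% were higher and 15.7% lower. At an unadjusted p under 0.05, 12 of the 34 members and 5294 of the 11860 genes passed. The changes ran from -0.44 to 0.69 with a median of 0.02, the median of all genes being -0.01. The groups did not overlap for 5 members (2 higher, 3 lower), against 34.9% of all genes.

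Arl3 was the 1 member that rose. Cas9-NTC held 47.8, 51.3 and 51.5 FPKM, and the libraries labelled Gli2 knockout 105, 79.5 and 59.1, so that all 3 lay above the control and library 3 lay nearest to it. The change was 0.64 ± 0.21 (SE) on the log2 scale, or 1.61-fold in mean FPKM (limma adjusted p = 0.0409). It was 0.85 without library 3 (adjusted p = 0.00136) and 0.44 without library 1 (adjusted p = 0.15). The call was lost in 13 of 22 alternatives, among them the omission of library 2 (adjusted p = 0.116) or of any 1 Cas9-NTC library (0.0951 to 0.105).

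Ift20 had the largest change of all members and did not pass. Cas9-NTC held 21.7, 24.1 and 23.1 FPKM of it, and the libraries labelled Gli2 knockout 52.1, 46.2 and 22.0. Libraries 1 and 2 were far above the control and library 3 was among the control's values. The change was 0.69 ± 0.25 (SE) with a limma adjusted p of 0.0602, and 1.06 ± 0.11 without library 3 (adjusted p = 1.14e-05).

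Of the 3 members that fell, Wdr19 encodes IFT144, a core subunit of IFT-A. It was at 1.15, 1.42 and 1.25 FPKM in Cas9-NTC and at 0.55, 0.533 and 0.977 in the libraries labelled Gli2 knockout, all of which lay below the control. The change was -0.44 ± 0.11 (SE) on the log2 scale, or 1.86-fold lower in mean FPKM (limma adjusted p = 0.0171). It was -0.56 without library 3 (adjusted p = 0.00033), and its adjusted p was 0.0653 without library 1 and 0.0761 without library 2. The call of Wdr19 was lost in 5 alternatives in all, with adjusted p up to 0.0852.

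The other two encode BBSome subunits. Bbs9 was at 1.48, 1.59 and 1.66 FPKM in Cas9-NTC and at 1.1, 0.899 and 1.08 in the libraries labelled Gli2 knockout. All 3 libraries, library 3 included, lay at a like level below the control. The change was -0.35 ± 0.08 (SE) on the log2 scale, or 1.54-fold lower in mean FPKM (limma adjusted p = 0.0119), and -0.37 without library 3. Without library 2 its adjusted p was 0.0567, and its call was lost in 3 alternatives in all, up to 0.059. Bbs2 went from 3.21, 3.86 and 3.35 FPKM to 2.25, 2.85 and 2.61, again without overlap. Its change of -0.33 ± 0.11 (SE) passed narrowly (limma adjusted p = 0.0482), and under 15 alternatives its adjusted p was above 0.05, up to 0.169.

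Bbs1, under the filter, was lower in the same libraries. It was at 0.814, 0.728 and 0.752 FPKM in Cas9-NTC and at 0.318, 0.44 and 0.442 in the labelled knockout, without overlap (1.91-fold lower; exact permutation test, p = 0.1, the smallest possible). In limma without the filter its adjusted p was 0.0255. Dync2h1 was at 0.592, 0.593 and 0.525 FPKM against 0.565, 0.531 and 0.807, and the groups overlapped (exact permutation test, p = 0.8).

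Other IFT-A core subunits and the kinesin-II subunits did not pass but were low in libraries 1 and 2. Ift122 was at 1.97, 2.07 and 1.94 FPKM in Cas9-NTC and at 0.903, 1.31 and 2.08 in the libraries labelled Gli2 knockout (limma adjusted p = 0.0972). Kif3a was at 9.13, 8.2 and 8.89 FPKM against 5.54, 4.99 and 9.26 (limma adjusted p = 0.0879). In both genes library 3 lay above every control library. None of the 4 Hedgehog members passed in limma, at the adjusted or the unadjusted threshold: Gpr161, Kif7, Evc2 and Evc changed by -0.13, -0.08, -0.04 and 0.04.

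The libraries labelled Gli2 knockout differed from one another in the members more than the control libraries did. Counted per library against the mean of Cas9-NTC, 18 of the 34 members in library 1 lay more than 0.3 from it on the log2 scale (52.9%, against 65.4% of all genes). In library 2 there were 15 (44.1%, against 57.6%) and in library 3 there were 7 (20.6%, against 24.5%). Each Cas9-NTC library was set against the mean of the other Cas9-NTC libraries. There were 1, 0 and 1 such members, against 5.79%, 4.27% and 4.93% of all genes. Without library 3, 18 members passed the test, 7 higher and 11 lower, which is 52.9% of members against 65.7% of all genes. Without library 1 only Bbs9 passed, 2.94% of members against 13.9% of all genes. Without library 2, or without Cas9-NTC library 3, 0 passed in limma, with 5 and 8 at an unadjusted p under 0.05, and 11.3% and 12.5% of all genes passed. Of the 11860 genes, 3570 and 4018 had an unadjusted p under 0.05.

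The direction of a member's change in these libraries went with the length of its exons. Across the 34 members, Spearman's rho between the change and exon length was -0.50, and across 11856 genes it was -0.34; the genes share the same libraries, and the values are given as a description. The 10 members with exons under 3500 bases had a median change of 0.22 and the 24 longer ones of -0.05, while all genes gave 0.15 and -0.10 for the same split. Library 1 had medians of 0.38 and -0.19 for the shorter and longer members, library 2 had 0.36 and -0.17, and library 3 had -0.18 and 0.05. In Gli2CA against NTC, rho was -0.06 across members. With the trend of change on exon length removed, 5 members passed in the libraries labelled Gli2 knockout: the same 4 and Bbs7, higher. In that fit 1464 of 11860 genes passed as higher and 1998 as lower. The part of exon length in the members' changes was otherwise not tested.

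**Figure D3:**
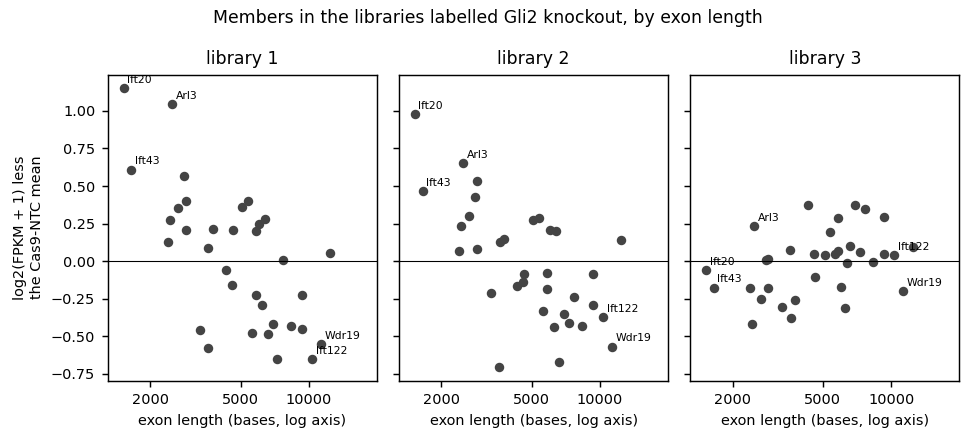
Difference of each of the 34 tested members from the mean of Cas9-NTC on the log2(FPKM + 1) scale (y axis) by exon length (x axis, log scale), in libraries 1, 2 and 3 labelled Gli2 knockout (panels). In libraries 1 and 2 short members such as Ift20, Ift43 and Arl3 lie high and long ones such as Wdr19 and Ift122 lie low. In library 3 Ift20 and Ift122 lie near 0 and Ift43 below it, while Arl3 at 0.232 and Wdr19 at -0.201 keep their sign.

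More members passed between the 2 control lines than in either Gli2 comparison. Between Cas9-NTC and NTC, 14 of the 34 members passed, 5 higher and 9 lower in Cas9-NTC. That is 41.2% of them, against 48.9% of all genes tested, of which 24.0% were higher and 24.9% lower. Of the 14, 9 changed by more than 0.5 and 3 by more than 1 on the log2 scale, and the members' median was -0.10 against 0.02 for all genes. The groups did not overlap for 20 members, 6 higher and 14 lower, against 69.4% of all genes. The lines differ in Cas9 and in blasticidin, and their Sox10 RNA, itself a measured level, differed too. Cas9, blasticidin and any other difference between the lines, such as their parental origin, cannot be told apart as sources of the differences.

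Ift27, the Rab-like GTPase of IFT-B that helps the BBSome leave the cilium, differed the most. It lies on chromosome 15 from 78159463 to 78174107 (GRCm38). It was at 5.77, 6.35 and 6.39 FPKM in NTC and at 18.6, 20.6 and 20.6 in Cas9-NTC, groups that are far apart. The difference was 1.55 ± 0.10 (SE) on the log2 scale, or 3.23-fold in mean FPKM (limma adjusted p = 1.48e-07). The Gli2CA libraries, at 6.69 to 7.36 FPKM, stayed near NTC, and the libraries labelled Gli2 knockout, at 17.5 to 23.1, near Cas9-NTC. Other genes of chromosome 15 were also higher in Cas9-NTC, by a median of 0.58 over 481 genes, and by 0.63 over the 25 within 1 Mb of Ift27; the part of a whole-chromosome shift in its change was not tested.

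Ttc8, which encodes the BBSome subunit BBS8, rose almost as much. It was at 3.12, 3.38 and 2.95 FPKM in NTC and at 8.86, 8.8 and 8.25 in Cas9-NTC, with no overlap. The difference was 1.22 ± 0.12 (SE), or 2.75-fold in mean FPKM (limma adjusted p = 6.2e-06). Its 7 neighbours within 1 Mb on chromosome 12 had a median of 0.07. The groups labelled Gli2CA and Gli2 knockout each stayed near their own control, at 2.5 to 3.12 and 7.07 to 10.2 FPKM.

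The remaining members of the BBSome did not follow Ttc8 as one. Bbs2 was higher by 0.45 ± 0.11 (limma adjusted p = 0.00495), Bbs9 lower with a change of -0.32 ± 0.08 (adjusted p = 0.00593) and Bbs7 lower with a change of -0.26 ± 0.10 (adjusted p = 0.0486), while Bbs4 and Bbs5 were at 0.14 and 0.03. The call of Bbs7 was lost in 16 alternatives. Bbs1 was at 0.667 to 0.77 FPKM in NTC and 0.728 to 0.814 in Cas9-NTC (exact permutation test, p = 0.5). Subunits of 1 complex thus changed in both directions.

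**Figure D4:**
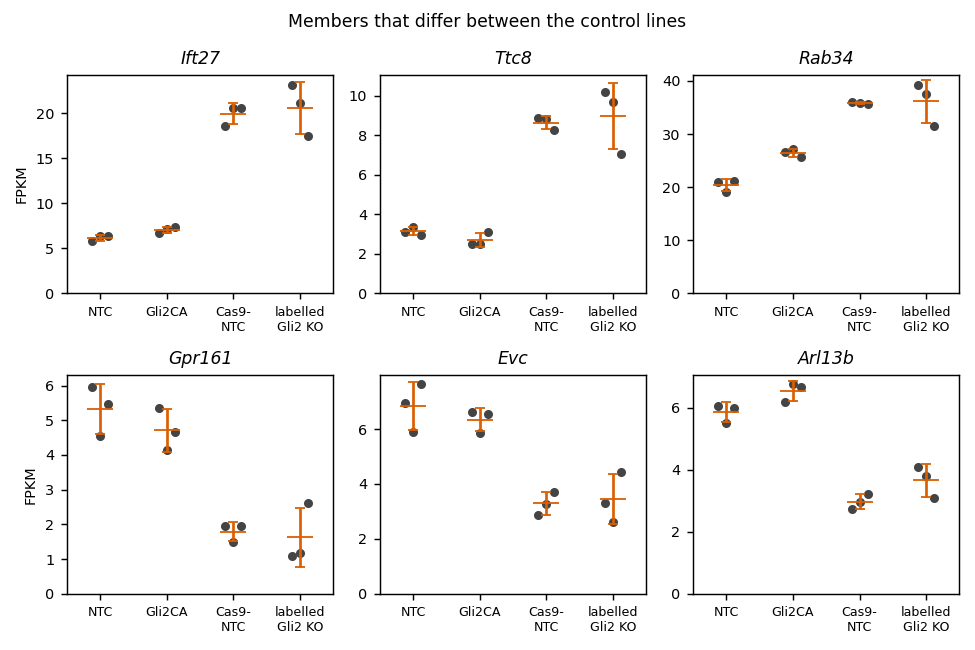
FPKM (y axis, from 0) of 6 members in each library (grey points) of the 4 groups (x axis), with the mean and SD of 3 libraries in orange; "labelled Gli2 KO" is Cas9-Gli2KO. Ift27, Ttc8 and Rab34 are higher and Gpr161, Evc and Arl13b lower in both Cas9 groups than in NTC and Gli2CA.

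Of the 4 Hedgehog members 3 were lower in Cas9-NTC (75.0%, against 24.9% of all genes lower). Gpr161 was at 5.97, 4.56 and 5.47 FPKM in NTC and at 1.94, 1.48 and 1.95 in Cas9-NTC, so that every Cas9-NTC library lay far below every NTC library. The difference was -1.18 ± 0.19 (SE) on the log2 scale, or 2.98-fold lower in mean FPKM (limma adjusted p = 0.000307). Evc was at 6.96, 5.91 and 7.65 FPKM against 2.87, 3.28 and 3.72, also with a wide gap. The difference was -0.87 ± 0.14, or 2.08-fold lower (limma adjusted p = 0.000392). Its 16 neighbours within 1 Mb, Evc2 among them, had a median of 0.28. Kif7 was lower with a change of -0.41 ± 0.11 (adjusted p = 0.00975). Evc2, the next gene along chromosome 5, did not pass at -0.05 ± 0.14 (adjusted p = 0.773).

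Of the members of membrane traffic, Arl13b, the GTPase that marks the ciliary membrane and activates Arl3, was lower in Cas9-NTC. It was at 6.07, 5.5 and 6.01 FPKM in NTC and at 2.73, 2.97 and 3.22 in Cas9-NTC, with no overlap. The difference was -0.79 ± 0.10 (SE), or 1.97-fold lower (limma adjusted p = 3.15e-05). Its 2 neighbours within 1 Mb that were tested had a median of -2.04, and the 354 other genes of chromosome 16 one of -0.27. Rab34 was higher, at 36, 35.8 and 35.6 FPKM in Cas9-NTC against 19.0 to 21.2 in NTC, a gap wider than that between Gli2CA and NTC. The difference was 0.78 ± 0.09, or 1.75-fold (limma adjusted p = 1.9e-05). Arl3, Tulp3 and Inpp5e, the last a phosphatase that sets the lipid makeup of the ciliary membrane, were at -0.02, -0.18 and -0.22 and did not pass.

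In IFT-B, besides Ift27, Ift80 was higher by 0.51 ± 0.08 (limma adjusted p = 0.000241), and so were 5 of its 7 neighbours within 1 Mb, whose median was 0.55. Ift88, a core subunit whose loss in mice abolishes cilia, was at 2.4, 2.91 and 2.6 FPKM in NTC and at 1.36, 1.58 and 1.4 in Cas9-NTC, with no overlap. The difference was -0.57 ± 0.10 (SE), or 1.82-fold lower (limma adjusted p = 0.000543). Its 20 neighbours within 1 Mb had a median of -0.23, and 7 of them passed as lower and 1 as higher. Ift46 was lower with a change of -0.30 ± 0.11 (adjusted p = 0.0484), a call lost in 13 alternatives. The other 7 IFT-B members did not pass. In IFT-A 0 of 6 passed in limma and 1 had an unadjusted p under 0.05, as did 6493 of 11860 genes. The differences of the 6 ran from -0.31 for Ttc21b to 0.08 for Wdr19. Of the motors, Kif3b was at 12.3, 11.1 and 11.6 FPKM in NTC and at 7.31, 8.25 and 8.16 in Cas9-NTC, without overlap (change -0.51 ± 0.12, limma adjusted p = 0.00445). The 19 neighbours of Kif3b within 1 Mb had a median of -0.33, and 9 of them passed as lower and 1 as higher. The part of the neighbourhood in the changes of Ift88 and Kif3b was not tested. Kif3a was at -0.10 ± 0.17 (adjusted p = 0.663). Dync2h1 was at 0.525 to 0.593 FPKM in Cas9-NTC and 0.399 to 0.464 in NTC, without overlap (exact permutation test, p = 0.1, the smallest possible).

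The change in Gli2CA against NTC was then tested against the change in the libraries labelled Gli2 knockout against Cas9-NTC. This difference passed for 5 of the 34 members (14.7%, against 28.3% of all genes tested, 16.7% positive and 11.6% negative). It had an unadjusted p under 0.05 for 10 members and for 4985 of the 11860 genes. It was positive, the value in Gli2CA lying above that in the labelled knockout, for Wdr19 (0.67 ± 0.16, limma adjusted p = 0.00942), Bbs2 (0.57 ± 0.15, adjusted p = 0.0192) and Bbs9 (0.35 ± 0.11, adjusted p = 0.0434). For these 3 the changes were 0.23, 0.25 and 0.00 in Gli2CA and -0.44, -0.33 and -0.35 in the labelled knockout. The difference was negative for Ift57 (-0.62 ± 0.17, adjusted p = 0.02) and Bbs7 (-0.57 ± 0.14, adjusted p = 0.0129). Except for Wdr19, Bbs2 and Bbs9 in the libraries labelled Gli2 knockout, none of these 5 passed in either comparison by itself. Without library 3 of the group labelled Gli2 knockout, 19 members passed, while of 11860 genes 3995 passed as positive and 3540 as negative.

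Other genes of the cilium were taken from 7 lists with 133 genes, of which 92 were tested. In Gli2CA against NTC 7 rose and 6 fell, which is 14.1% of those tested, against 14.2% of all genes. In the libraries labelled Gli2 knockout 7 rose and 8 fell (16.3%, against 26.8%), and between the control lines 21 were higher and 16 lower in Cas9-NTC (40.2%, against 48.9%). The other subunits of IFT, the BBSome and the motors gave 0 calls of 20 in Gli2CA and 2 at an unadjusted p under 0.05, and so did 20 genes of the transition zone, the gate at the base of the cilium. Of 16 genes of motile cilia, 15 stayed under 1 FPKM in every library.

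Hedgehog genes gave 5 of the 13 calls in Gli2CA, with 4 of 15 tested higher and 1 lower (33.3%, against 14.2% of all genes). Gas1, a coreceptor for Hedgehog ligands, was at 0.37, 0.278 and 0.315 FPKM in NTC and at 3.15, 2.65 and 2.64 in Gli2CA, far apart. Its change was 1.53 ± 0.12 (SE; limma adjusted p = 8.08e-06). Ptch1, the receptor and a direct target of the pathway, was at 2.68, 2.48 and 2.66 against 5.92, 5.54 and 5.7 FPKM, a change of 0.90 ± 0.16 (adjusted p = 0.00256). Gli1, a target that lay under the filter, was at 0.162 to 0.228 FPKM in NTC and at 0.967 to 1.33 in Gli2CA, with a limma adjusted p of 3.48e-05 when no filter was used. Efcab7, which holds Evc and Evc2 in their zone at the ciliary base, fell by 0.63 on the log2 scale (adjusted p = 0.0282; lost in 8 alternatives, up to 0.112).

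Genes that start a cilium or take it down gave calls both ways in Gli2CA. Rab3ip, the exchange factor that activates Rab8 at the nascent cilium, was at 22.6, 20.5 and 24.0 FPKM in NTC and at 33.3, 37.1 and 33.9 in Gli2CA, with no overlap (change 0.61 ± 0.09, limma adjusted p = 0.000933; 0.0599 with libraries rescaled to a common total). Cfap20 and Rab23 fell by 0.33 and 0.31 (adjusted p = 0.0474 and 0.0446), calls lost in 15 and 14 alternatives with adjusted p up to 0.166 and 0.168, and Mcidas, the driver of multiciliated cells, rose by 0.63 (adjusted p = 0.00669) from a mean of 1.19 to 2.39 FPKM. Among 7 tested genes of cilium disassembly 1 rose and 2 fell (42.9%, against 14.2% of all genes). Nedd9, the scaffold that activates Aurora A there, rose by 0.44 ± 0.08 (adjusted p = 0.00485; 0.176 when rescaled). Aurka itself fell by 0.48 (adjusted p = 0.00121), and so did Nde1, a brake on ciliary length, by 0.31 (adjusted p = 0.0169; lost in 4 alternatives, up to 0.0717). Aurka is also a gene of dividing cells, and 16 of 22 proliferation genes fell in Gli2CA (72.7%, against 5.76% of all genes lower), their summed level being 762 to 776 FPKM in NTC and 514 to 534 in Gli2CA; the part of proliferation in these changes was not tested.

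In the libraries labelled Gli2 knockout, 3 of the 7 disassembly genes fell and 0 rose (42.9%, against 26.8% of all genes, 15.7% lower). Hdac6, the deacetylase that removes acetyl groups from ciliary microtubules, was at 5.7, 5.9 and 6.4 FPKM in Cas9-NTC and at 1.65, 2.16 and 3.14, and all 3 libraries lay well below the control. Its change was -1.10 ± 0.14 (SE), or 2.59-fold lower in mean FPKM (limma adjusted p = 0.00029), and -1.27 without library 3. Nek2 fell by 0.65 (adjusted p = 0.00726) and Nedd9 by 0.50 (adjusted p = 0.00227). The call of Nek2 was lost with the compared groups alone (limma adjusted p = 0.0831). Of the 22 proliferation genes 4 rose and 0 fell there (18.2%, against 26.8% of all genes), with 9 at an unadjusted p under 0.05.

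Further calls in those libraries fell in several lists. Dynlt1b, a light chain of dynein with exons of 771 bases, was at 29.4, 34.5 and 35.3 FPKM in Cas9-NTC and at 105, 77.1 and 39.0, high in libraries 1 and 2 and nearer the control in library 3 (change 1.03 ± 0.32, limma adjusted p = 0.0389); it has near-identical copies in the mouse genome, so its count is uncertain. Arl6, the GTPase that recruits the BBSome to membranes, rose by 0.60 ± 0.19 (adjusted p = 0.0368) and Tmem107 of the transition zone by 0.64 ± 0.21 (adjusted p = 0.0486), and in both library 3 lay within or next to the control's range. The calls of Dynlt1b, Arl6 and Tmem107 were lost in 12, 10 and 17 of 22 alternatives, with adjusted p up to 0.147, 0.168 and 0.188. Of the genes that start a cilium, Cfap20 and Rab8a rose by 0.44 and 0.37 (adjusted p = 0.00979 and 0.0438; the latter lost in 15 alternatives, up to 0.181), and Ehd1 and Rab3ip fell by 0.52 and 0.43 (adjusted p = 0.00828 and 0.00875). Wdr60, a dynein-2 intermediate chain, fell by 0.54 (adjusted p = 0.00939), and Glis2, a Gli-like transcription factor, by 0.74 (adjusted p = 0.0165, lost in 5 alternatives, up to 0.128). With the compared groups alone, the calls of Cfap20, Ehd1, Rab3ip and Wdr60 were lost (limma adjusted p = 0.102, 0.0884, 0.0636 and 0.0984). Smo rose by 0.27 ± 0.07 (adjusted p = 0.0219), with 20.8, 20 and 22.3 FPKM in Cas9-NTC and 25.6, 24.3 and 26.8 in the labelled knockout; its call was lost in 5 alternatives, and rescaled to a common total its adjusted p was 0.582. Of the RFX factors that bind X-boxes, Rfx3 was at 0.406 to 0.688 FPKM in all 12 libraries. Exons of Gas1, Gli1, Nedd9, Nde1, Arl6, Glis2 and Nek2 overlap those of other genes, and their values carry the same doubt about strand.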

How the data were processed

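The authors deposited FPKM values for 54532 genes, with 12 columns of 1 library each. Per the labels' protocols, RNA from an RNeasy kit was selected with poly-T beads, and libraries were made with NEBNext Ultra II reagents. The aligner, counter, annotation, build and strand setting were not given in the sources used here. Symbols, exon lengths and coordinates come from GENCODE M21 (GRCm38), which holds 54495 of the IDs. With these lengths, 97.75% to 98.36% of the values of up to 20 reads came out whole within 0.02 of a read, which gave depths of 15972800 to 25983200 reads. A gene with no reads can lie below 3 reads, a limit that covers counting error only.

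The test was limma 3.58.1 (R 4.3.3) with a trended prior on log2(FPKM + 1), for 11860 genes that reached 1 FPKM in 3 or more libraries. The 4 groups shared a single fit (8 residual degrees of freedom), so a library left out of one group also moves the others. Calls have a 2-sided Benjamini-Hochberg adjusted p under 0.05 over all these genes. Changes on the log2(FPKM + 1) scale understate those of low genes, and folds are given as ratios between mean FPKM values. Members under the filter and Gli2 had 2-sided exact permutation tests, which cannot go below 0.1. The fit was tested on simulated data.

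The members, the wider lists and the tests were chosen with earlier results of these data known. Named are the members called with a change of at least 0.5 in a Gli2 comparison, the largest change in each role, the 3 highest, those under the filter, the 4 largest changes between the control lines, and up to 2 called genes per direction and wider list in each Gli2 comparison, and Gli2, Gli1 and Ptch1. Other members were named after their values were seen. Promoters are those of RefSeq. Tables and plots were made in Python 3.11.15 with matplotlib 3.10.9, scipy 1.17.1, pandas 2.3.3 and numpy 2.4.6. The alternatives were other pseudocounts (0.1 and 5), no filter, a filter at 5 FPKM, rescaling to a common total, quantile normalisation, the compared groups alone, a replicate block, library weights, each library left out and, added after the data were seen, removal of the trend on exon length.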

Additional observations from a re-analysis of the deposited data

Results flagged for a closer look

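For 5 members the change in Gli2CA against NTC and the change in the libraries labelled Gli2 knockout against Cas9-NTC differed in a direct test of that difference (limma, adjusted p under 0.05 over 11860 genes, of which 28.3% passed). Wdr19 of IFT-A differed by 0.67 on the log2(FPKM + 1) scale, with changes of 0.23 in Gli2CA and -0.44 in the labelled knockout. The BBSome members Bbs2, Bbs9 and Bbs7 differed by 0.57, 0.35 and -0.57, and Bbs7 had changes of -0.27 and 0.29. Ift57 of IFT-B differed by -0.62, with changes of -0.30 and 0.32, and its exons overlap those of Gm15518. Gli2 RNA was higher in the labelled knockout than in its control, and these data hold no protein levels. Opposite signs here therefore cannot be read as opposite Gli2 levels. The tests of Wdr19 and Bbs7 passed under all 20 alternatives that tested them, that of Ift57 under all but the omission of Gli2CA library 2 (adjusted p = 0.0521), while that of Bbs2 was lost in 4 and that of Bbs9 in 15.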

How the results depend on the processing

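In both Gli2 comparisons and in the difference of changes, the counts of members called rose most with the library weights and without library 3 of the group labelled Gli2 knockout; the causes of the moves below were not tested. Without 1 library at a time, the members called were 0 to 7 in Gli2CA against NTC (genes 1132 to 3608) and 0 to 18 in the labelled knockout (genes 1338 to 7793). They were 12 to 18 between the control lines and 3 to 19 for the difference of changes (genes 2373 to 7535). Each upper end is the fit without that library 3, in which 3799 genes were higher and 3894 lower between the control lines. In the 5 fits with 0 members in Gli2CA, 4 or 5 had an unadjusted p under 0.05 (limma), and in the 2 with 0 in the labelled knockout 5 and 8 had. Of 11860 genes, 2495 to 2694 did in the former fits, and 3570 and 4018 in the latter. With library weights, 12, 16, 19 and 16 members and 5111, 6223, 8718 and 6525 genes were called in these comparisons in that order. With the compared groups alone, 4 members and 2916 genes were called in Gli2CA and 1 member and 762 genes in the labelled knockout. Between the control lines 18 members were called, with 3687 genes higher and 3813 lower. With the filter at 5 FPKM, which leaves 18 members, 1, 1, 8 and 1 members were called. Of 7823 genes tested there, 705 were higher and 453 lower in Gli2CA, and 965 and 1550 in the labelled knockout. Between the control lines 1823 were higher and 2117 lower, and the difference of changes was positive for 1489 and negative for 886. With no filter 1 member was called in Gli2CA, where 1186 of 26132 genes were higher and 705 lower. Gpr161 in the labelled knockout turned from -0.13 to 0.01 without library 1 and was -0.38 without library 3. Rescaling to a common total moved the median change of all genes to -0.13 in Gli2CA and -0.14 in the labelled knockout, and the positive share of calls for the difference of changes from 58.9% to 46.4%. Same-numbered libraries deviated together with correlations of 0.097, 0.006 and -0.045 in NTC and Gli2CA and 0.248, -0.153 and 0.196 in the Cas9 groups. Differently numbered libraries had correlations of -0.092 to 0.075 and of -0.289 to 0.252 there. With deviations taken from means of so few libraries, these values cannot settle whether replicate numbers pair the samples. The replicate block gave 2, 3, 13 and 4 members called. Of 11860 genes, 913 were then higher and 562 lower in Gli2CA, and 1181 and 1693 in the labelled knockout. Between the control lines 2781 were higher and 2909 lower, and the difference of changes was positive for 1842 and negative for 1258. Of the 14 members called between the control lines, 11 passed under all alternatives that tested them; Kif3b lost its call in 1, Ift46 in 13 and Bbs7 in 16. Bbs1, with as few as 56 reads, limits what can be said of low members.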
